A study of Mus musculus with 12 samples.

Results

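The genes described here are 38 mouse genes of the presynaptic terminal that build synaptic vesicles, release transmitter from them and take them back up. They were chosen by name, as a list of known functions, but with earlier results of these data known. The count files held 41388 gene identifiers, and every one of the 38 was found and passed the filter on low counts. RNA was counted in 12 sequencing libraries. The mice were C57/Bl6, aged postnatal day 21, the tissue was cortex with hippocampus, and the labels give every library the cell type astrocytes. All mice carried Aldh1L1::RPL10a-eGFP, a ribosomal protein joined to a green fluorescent tag under the Aldh1l1 promoter, which in the brain is active mainly in astrocytes. Translating ribosome affinity purification (TRAP) then uses antibodies to the tag to collect these ribosomes and the RNA they hold. PAP TRAP (peripheral astrocyte process TRAP, 3 libraries) is the immunoprecipitate of a synaptoneurosome layer, a sucrose gradient fraction of pinched-off synapses and the fine processes around them. Synaptoneurosome input (3 libraries) is the same layer before the immunoprecipitation, cortex TRAP (3 libraries) is the immunoprecipitate of whole tissue, and cortex input (3 libraries) is that tissue before it. Every group shared the transgene, cycloheximide at 1 ug/mL, which holds ribosomes on their messages, and TTX, a blocker of sodium channels, at 1 mM. Nothing in the labels says that the 3 libraries of a group came from separate animals, so p-values measure the spread between these libraries, which may be technical.

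At a nerve terminal, transmitter is loaded into vesicles by transporters, the vesicles are held in reserve by synapsins, and scaffold proteins of the active zone place them beside calcium channels. Synaptotagmins sense calcium, SNARE proteins of the vesicle and the plasma membrane zip together to fuse both, and NSF with its adaptors takes the SNARE complexes apart again. Dynamin, amphiphysin and synaptojanin then recover the membrane by endocytosis. Nearly all of these proteins are made by neurons, but some members of each family, such as cellubrevin (Vamp3) and Snap29, serve membrane traffic in cells of many kinds, astrocytes included.

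Many genes of this kind carry an RE1 element in their regulatory DNA, through which the repressor REST lowers neuronal genes in other cells, and cAMP response elements are a second known feature of the synapsin promoter. RefSeq promoter windows of 300 bases (250 before and 50 after each start, GRCm38.p6) were at hand for 29 of the 38 genes, as 38 windows. The left arm of RE1 (TTCAGCACC, either strand) stood in 2 of the 38 windows and in 0.371% of all 32851 windows. Its right arm (GGACAGCGC, either strand) stood in 1 of the 38 and in 0.405% of all, and the cAMP response element (TGACGTCA) in 1 of the 38 and in 1.79% of all. The GC box (GGGCGG, either strand) stood in 60.5% of the members' windows and 35.7% of all, and TATAAA in 5.26% and 13.6%. The windows of Syn1 and Unc13a are shown because they hold these RE1 arms. Capitals mark the RE1 arms and the cAMP response element on either strand, and a match is no evidence of binding.
Syn1, chrX:20920869-20921168, minus strand: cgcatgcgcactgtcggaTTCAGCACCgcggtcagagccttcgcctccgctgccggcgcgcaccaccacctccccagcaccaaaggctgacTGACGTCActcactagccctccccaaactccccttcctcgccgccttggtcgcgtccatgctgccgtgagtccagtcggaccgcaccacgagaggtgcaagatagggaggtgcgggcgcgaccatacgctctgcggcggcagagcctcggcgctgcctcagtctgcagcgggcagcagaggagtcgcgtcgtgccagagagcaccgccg
Unc13a, chr8:71671708-71672007, minus strand: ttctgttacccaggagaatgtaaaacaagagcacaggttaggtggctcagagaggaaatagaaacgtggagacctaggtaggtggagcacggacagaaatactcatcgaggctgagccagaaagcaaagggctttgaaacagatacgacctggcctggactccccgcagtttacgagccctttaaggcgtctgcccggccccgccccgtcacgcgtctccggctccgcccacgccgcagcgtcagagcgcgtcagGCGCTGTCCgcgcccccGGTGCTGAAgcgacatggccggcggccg

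Gene counts per library ranged from 4918113 to 17553985, and nuclear genes held the fewest counts in the synaptoneurosome inputs (1423296 to 2476076), where 83.8% to 91.9% of the counts came from the mitochondrial chromosome. That share was 35.6% to 47.6% in PAP TRAP, 1.03% to 1.28% in cortex TRAP and 44.8% to 50.2% in cortex input. A list of 15 astrocyte markers took 4.97% to 9.75% of nuclear counts in PAP TRAP, 4.10% to 4.98% in synaptoneurosome input, 7.29% to 10.6% in cortex TRAP and 0.825% to 0.915% in cortex input. For 16 neuron markers the ranges were 0.334% to 0.501% in PAP TRAP, 0.438% to 0.487% in synaptoneurosome input, 0.0706% to 0.0849% in cortex TRAP and 0.613% to 0.629% in cortex input. Markers of oligodendrocytes (11 genes) took 0.795% to 1.06%, 0.572% to 0.771%, 0.0632% to 0.0927% and 0.422% to 0.463% of nuclear counts in those 4 groups, in the same order. PAP TRAP replicate 2 stood apart from the other PAP TRAP libraries, with the highest astrocyte share (9.75%) and the lowest neuron share (0.334%). Aldh1l1 itself rose by 3.46 on the log2 scale in cortex TRAP against cortex input, and differed by 1.44 in PAP TRAP against synaptoneurosome input (adjusted p = 0.0685). No marker of the 3 lists was at 0 in all libraries. Levels below are TMM-normalized CPM, counts scaled to a common library size (normalized CPM). Changes are log2 values ± SE from edgeR's quasi-likelihood test over 13364 genes, called at a Benjamini-Hochberg adjusted p under 0.05, and every adjusted p comes from that test.

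Of nuclear counts, the presynaptic messages took a far smaller share of cortex TRAP than of cortex input. Their share of PAP TRAP was moderately smaller than that of synaptoneurosome input, an order that reversed with mitochondrial genes counted in. Of all nuclear counts, the 38 genes together took 2.11%, 1.45% and 2.02% in PAP TRAP, 2.59%, 2.52% and 3.29% in synaptoneurosome input, 0.486%, 0.657% and 0.649% in cortex TRAP, and 3.56%, 3.32% and 3.69% in cortex input. All 3 cortex TRAP libraries lay below every other library, every PAP TRAP library lay below every synaptoneurosome input, and PAP TRAP replicate 2 was the lowest of its group. With mitochondrial genes in the denominator the shares were 0.875% to 1.30% in PAP TRAP, 0.204% to 0.534% in synaptoneurosome input, 0.481% to 0.650% in cortex TRAP and 1.66% to 1.97% in cortex input. Every PAP TRAP library then lay above every synaptoneurosome input, and synaptoneurosome input and cortex TRAP overlapped. The order of PAP TRAP and synaptoneurosome input thus depends on the denominator. The part of input RNA carried into the immunoprecipitates was not tested. In this bulk RNA, fewer cells of a type and less RNA per cell cannot be told apart. Without Snap25, the gene with the most counts, the shares were 1.31% to 1.91% in PAP TRAP, 2.08% to 2.55% in synaptoneurosome input, 0.335% to 0.436% in cortex TRAP and 2.10% to 2.28% in cortex input.

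In PAP TRAP against cortex TRAP, 32 of the 38 genes rose and 2 fell, with a median log2 change of 2.91, where 33.9% of all genes tested were called (19.3% higher, 14.6% lower) and the median of all genes was -0.28. In cortex TRAP against cortex input, 33 fell and 1 rose, with a median of -3.11, against 35.4% called (15.9% higher, 19.5% lower) and a median of 0.05 over all genes. In PAP TRAP against synaptoneurosome input, none rose and 3 fell by edgeR (median -0.20), against 4.53% called (1.53% lower) and a median of 0.06 over all genes. At an unadjusted p under 0.05 there were 3 positive and 6 negative changes, and DESeq2 called 0 higher and 4 lower. In synaptoneurosome input against cortex input, 7 rose and 4 fell (median -0.11), against 9.32% called (7.26% higher, 2.07% lower) and a median of -0.14 over all genes. Between PAP TRAP and cortex input, which differ in both steps, 5 rose and 6 fell (median -0.05), against 15.9% called (10.6% higher, 5.31% lower) and a median of -0.04 over all genes. These comparisons share libraries, so their counts are not independent of each other. The list was also chosen with earlier results of these data known, so the counts describe the list and are no test of it. Neuron markers moved beside the members: 15 of the 16 rose in PAP TRAP against cortex TRAP and 16 of 16 fell in cortex TRAP against cortex input. Of 11 oligodendrocyte markers 8 rose and 9 fell in these comparisons, and of 12 microglia markers 7 rose and 6 fell. Of 15 astrocyte markers 12 fell in the first and 15 rose in the second (median 4.11). In PAP TRAP against synaptoneurosome input 5 of the 15 astrocyte markers rose and 0 fell (median 0.87), and 0 of the 16 neuron markers were called (median -0.12). Oligodendrocyte markers had 1 rise and 2 falls there, and microglia markers 0 rises and 2 falls. The part of these cell types in the members' changes was not tested.

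Leaving out 1 library left the counts of the comparisons with cortex TRAP close to these. In synaptoneurosome input against cortex input they moved more, with 5 to 10 members called higher and 0 to 5 lower. Without PAP TRAP replicate 2, 32 members rose and 1 fell against cortex TRAP, and 0 rose and 2 fell against synaptoneurosome input. With any 1 of the 12 libraries left out, 33 to 35 members fell in cortex TRAP against cortex input. The 4 falls in synaptoneurosome input were not called without any 1 of the 3 cortex inputs, without synaptoneurosome input replicate 1 or without its replicate 2. Cortex TRAP was the group of the lowest mean level for 35 of the 38 genes. Some of these means lay close to those of PAP TRAP, with overlapping libraries. They were 30.4 against 33.0 normalized CPM for Rab3a and 844 against 903 for Snap25. The highest mean lay in PAP TRAP for 6 genes, in synaptoneurosome input for 13, in cortex TRAP for 2 and in cortex input for 17. The order of group means was not counted over all genes.

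**Figure D1:**
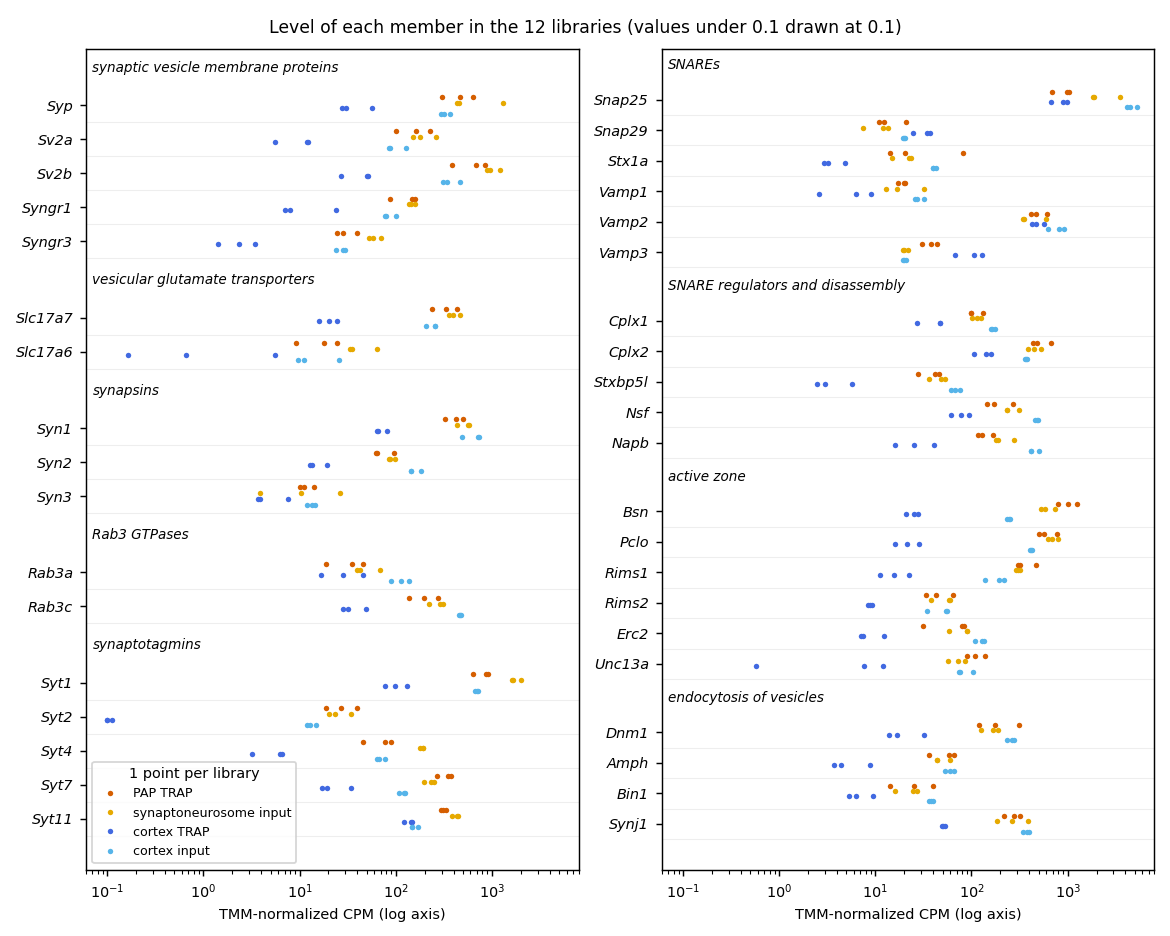
Level of each of the 38 genes in all 12 libraries, in TMM-normalized CPM on a log axis, 1 point per library and 1 colour per group, sorted by role (values under 0.1 are drawn at 0.1). Cortex TRAP points lie to the left for most genes, at 21.0 to 27.5 for Bsn against 799 to 1257 in PAP TRAP, and to the right for Vamp3, at 67.2 to 130.1 against 30.5 to 44.0 in PAP TRAP.

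**Figure D2:**
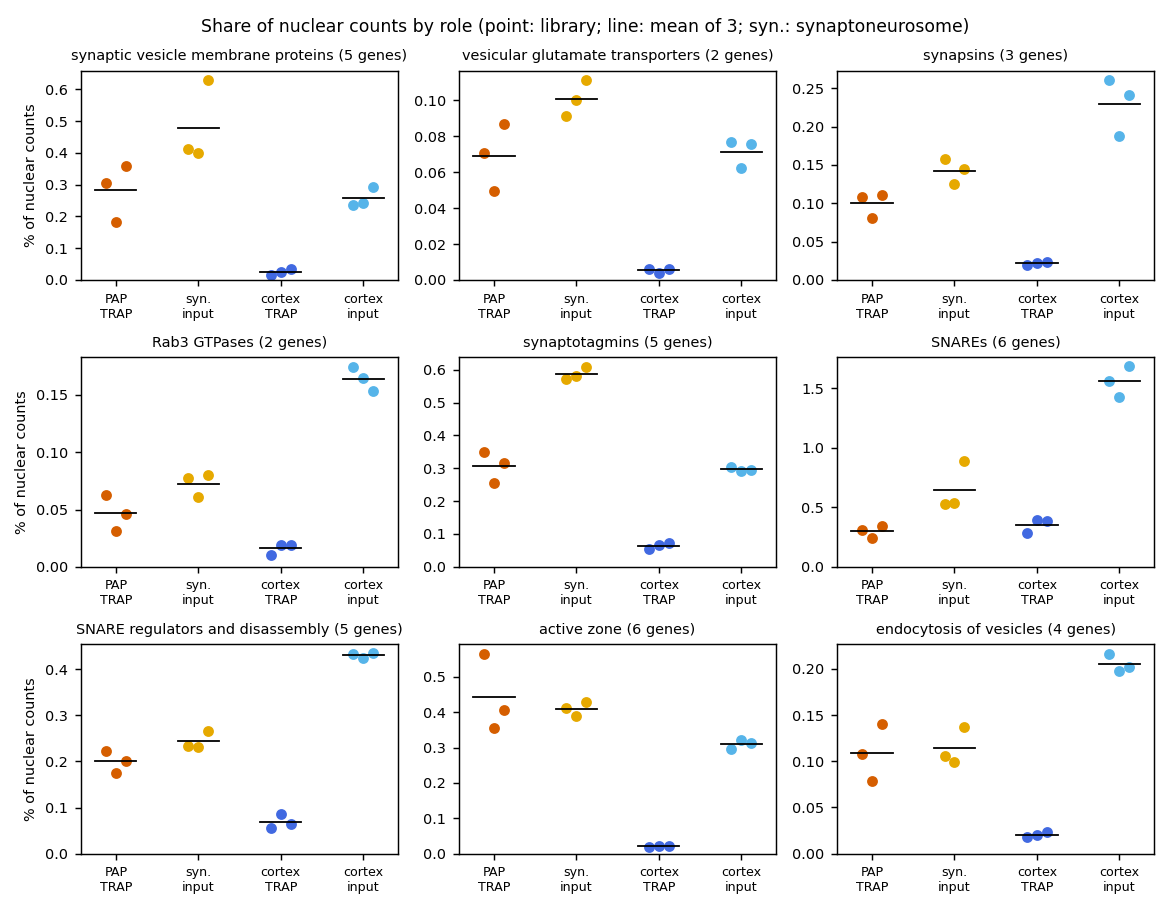
Share of nuclear counts (%) taken by each of the 9 role groups, 1 point per library with a line at the mean of 3. The active zone group has its highest mean in PAP TRAP (0.442%) and the SNAREs theirs in cortex input (1.56%), while cortex TRAP is lowest for 8 of the 9 groups, the SNAREs excepted.

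Among the proteins of the vesicle membrane, all 5 genes rose in PAP TRAP against cortex TRAP and all 5 fell in cortex TRAP against cortex input. Synaptophysin (Syp), an abundant vesicle protein that binds synaptobrevin, had 469, 305 and 634 normalized CPM in PAP TRAP, 460.0, 439 and 1302 in synaptoneurosome input, 30.2, 27.7 and 56.5 in cortex TRAP, and 318, 299 and 366 in cortex input. The 3 PAP TRAP libraries lay above all 3 cortex TRAP libraries, and synaptoneurosome input replicate 3 lay far above its 2 companions. Syp changed by 3.62 ± 0.42 in PAP TRAP against cortex TRAP (adjusted p = 1.56e-06) and by -3.10 ± 0.41 in cortex TRAP against cortex input (adjusted p = 6.63e-06). Its change in PAP TRAP against synaptoneurosome input was -0.65 ± 0.38 (adjusted p = 0.36), and 0.08 without synaptoneurosome input replicate 3.

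Sv2b, a vesicle glycoprotein of the transporter superfamily, had 685, 382 and 846 normalized CPM in PAP TRAP, 963, 884 and 1224 in synaptoneurosome input, 26.9, 52.1 and 50.8 in cortex TRAP, and 312, 346 and 462 in cortex input. Cortex TRAP was lowest and did not overlap any other group, and the synaptoneurosome inputs all lay above the cortex inputs. The gene rose by 3.88 ± 0.34 in PAP TRAP against cortex TRAP (adjusted p = 3.74e-08) and by 1.46 ± 0.30 in synaptoneurosome input against cortex input (adjusted p = 0.00431). Its relative Sv2a, the binding site of the antiepileptic levetiracetam, averaged 164 ± 64.0 normalized CPM in PAP TRAP, 197 ± 57.6 in synaptoneurosome input, 9.84 ± 3.77 in cortex TRAP and 100.2 ± 24.5 in cortex input (SD, n = 3 each). Sv2a rose by 4.06 ± 0.39 in PAP TRAP against cortex TRAP (adjusted p = 1.33e-07).

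The synaptogyrins, vesicle proteins with 4 membrane passes related to synaptophysin, both rose in PAP TRAP against cortex TRAP and fell in cortex TRAP against cortex input. Syngr1 rose by 3.35 ± 0.40 in PAP TRAP against cortex TRAP, and by 4.28 without cortex TRAP replicate 3, whose level of 23.8 normalized CPM stood above 7.99 and 7.05 in the others. Its fall in cortex TRAP against cortex input was -2.72, and -3.66 without that library. Syngr3 had 39.4, 28.6 and 24.6 normalized CPM in PAP TRAP, 70.8, 53.4 and 57.5 in synaptoneurosome input, 1.42, 2.32 and 3.47 in cortex TRAP, and 28.3, 29.5 and 24.0 in cortex input. Its levels in synaptoneurosome input were the highest, with no overlap with another group. It rose by 3.68 ± 0.38 in PAP TRAP against cortex TRAP (adjusted p = 4.22e-07, and 4.60 with offsets corrected for exon length). In synaptoneurosome input against cortex input it rose by 1.15 ± 0.34 (adjusted p = 0.0398), a call that ended when any 1 of the 6 libraries compared was left out.

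The vesicular glutamate transporters load glutamate into vesicles, Slc17a7 (VGLUT1) mainly in cortical and Slc17a6 (VGLUT2) mainly in subcortical neurons. Slc17a7 had 330.3, 238 and 435 normalized CPM in PAP TRAP, 363, 392 and 468 in synaptoneurosome input, 20.4, 16.0 and 24.3 in cortex TRAP, and 255, 206 and 254 in cortex input. All 3 cortex TRAP libraries lay far below every other library. It rose by 4.04 ± 0.29 in PAP TRAP against cortex TRAP (adjusted p = 3.34e-09) and fell by 3.56 ± 0.28 in cortex TRAP against cortex input (adjusted p = 1.77e-08). Against synaptoneurosome input its change in PAP TRAP was -0.29 ± 0.25 (95% interval -0.82 to 0.24, adjusted p = 0.579). Slc17a6 had 17.9, 9.26 and 24.4 normalized CPM in PAP TRAP, 33.1, 34.9 and 63.3 in synaptoneurosome input, 5.61, 0.166 and 0.657 in cortex TRAP, and 11.2, 9.70 and 25.6 in cortex input. Cortex TRAP replicate 1 stood apart from the other 2 cortex TRAP libraries, with 99 counts against 2 and 11. The change of Slc17a6 in PAP TRAP against cortex TRAP was 2.97 ± 0.76 (adjusted p = 0.00559), and 5.39 without that library. In cortex TRAP against cortex input it was -2.82 ± 0.76 (adjusted p = 0.00648), and -5.25 without it.

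Synapsins tether vesicles to each other and to actin until phosphorylation frees them. Syn1 had 427, 326 and 504 normalized CPM in PAP TRAP, 586, 439.8 and 565 in synaptoneurosome input, 64.5, 65.6 and 82.0 in cortex TRAP, and 712, 493 and 734 in cortex input. Cortex TRAP was lowest without overlap. Syn1 rose by 2.57 ± 0.25 in PAP TRAP against cortex TRAP (adjusted p = 2.32e-07), and changed by -0.34 ± 0.24 against synaptoneurosome input (95% interval -0.84 to 0.16, adjusted p = 0.465). Syn2 averaged 74.2 ± 18.6 normalized CPM in PAP TRAP, 90.7 ± 7.18 in synaptoneurosome input, 15.3 ± 3.58 in cortex TRAP and 157 ± 22.9 in cortex input (SD, n = 3 each). It rose by 2.28 ± 0.28 in PAP TRAP against cortex TRAP and fell by 1.08 ± 0.27 in PAP TRAP against cortex input (adjusted p = 0.00824, and 0.053 without cortex input replicate 1). Syn3 was the lowest of the 3 and was not called in cortex TRAP against cortex input (-1.38 ± 0.56, adjusted p = 0.0659, and -0.55 with length-corrected offsets) or in PAP TRAP against cortex TRAP (1.21 ± 0.56, adjusted p = 0.105, and 0.22 with length-corrected offsets). Timp3 lies inside Syn3 on the opposite strand, shares 1733 exon bases with it and had 11362 counts in all against 1514 for Syn3. The sources used here do not say whether the counting used strand, and the counts of Syn3 are therefore uncertain. Smaller overlaps of 90 exon bases of Syn2 with Timp4, 60 of Snap29 with Pi4ka and 495 of Unc13a with Colgalt1, also on the opposite strand, carry the same doubt.

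The Rab3 GTPases sit on vesicles and bind the active zone protein RIM when loaded with GTP. Rab3a had 35.2, 18.7 and 45.2 normalized CPM in PAP TRAP, 42.8, 39.4 and 67.9 in synaptoneurosome input, 16.9, 28.4 and 46.1 in cortex TRAP, and 136, 89.7 and 113 in cortex input. PAP TRAP and cortex TRAP overlapped, both below cortex input. It fell by 1.89 ± 0.38 in cortex TRAP against cortex input (adjusted p = 0.000674), and its change in PAP TRAP against cortex TRAP was 0.12 ± 0.37 (95% interval -0.67 to 0.90, adjusted p = 0.834), and 1.03 with length-corrected offsets, also not called. Rab3c had 274, 138 and 198 normalized CPM in PAP TRAP, 292, 219.8 and 315 in synaptoneurosome input, 28.7, 49.5 and 31.7 in cortex TRAP, and 471, 479 and 456 in cortex input. For this gene PAP TRAP lay above all cortex TRAP and below all cortex input libraries. Rab3c rose by 2.48 ± 0.29 in PAP TRAP against cortex TRAP (adjusted p = 1.88e-06; 1.50 with length-corrected offsets) and fell by 1.20 ± 0.28 in PAP TRAP against cortex input (adjusted p = 0.00518, and 0.0918 with GC-corrected offsets).

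All 5 synaptotagmins rose in PAP TRAP against cortex TRAP, and 4 of them rose in synaptoneurosome input against cortex input. Syt1, the fast calcium sensor of most forebrain terminals, had 913, 641 and 874 normalized CPM in PAP TRAP, 1656, 1626 and 2008 in synaptoneurosome input, 77.4, 99.1 and 130.3 in cortex TRAP, and 707, 667 and 726 in cortex input. The 4 groups were ordered with synaptoneurosome input highest and cortex TRAP lowest, and only PAP TRAP and cortex input overlapped. Syt1 fell by 1.12 ± 0.23 in PAP TRAP against synaptoneurosome input (adjusted p = 0.0101), rose by 2.98 ± 0.25 against cortex TRAP (adjusted p = 2.32e-08), and rose by 1.33 ± 0.23 in synaptoneurosome input against cortex input (adjusted p = 0.00103). Syt4, a synaptotagmin of dense-core vesicles, had 88.7, 45.5 and 77.4 normalized CPM in PAP TRAP, 180.5, 193 and 193 in synaptoneurosome input, 3.17, 6.30 and 6.63 in cortex TRAP, and 66.3, 77.7 and 63.3 in cortex input. The PAP TRAP levels were all below the 3 synaptoneurosome inputs and overlapped cortex input. Syt4 fell by 1.42 ± 0.30 in PAP TRAP against synaptoneurosome input (adjusted p = 0.0118), which became 0.0536 without PAP TRAP replicate 2 (change -1.18).

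Syt7, a slow sensor with high affinity for calcium, had 378, 268 and 352 normalized CPM in PAP TRAP, 195, 233 and 248 in synaptoneurosome input, 19.5, 17.2 and 34.5 in cortex TRAP, and 124, 108 and 122 in cortex input. PAP TRAP was the highest group and did not overlap synaptoneurosome input. The change between both was 0.56 ± 0.27 (95% interval 0.00 to 1.12) and was not called (adjusted p = 0.245). Against cortex input, Syt7 rose by 1.50 ± 0.27 in PAP TRAP (adjusted p = 0.000679). In synaptoneurosome input it rose by 0.93 ± 0.27 against cortex input (adjusted p = 0.0338), a call lost when any 1 of the 6 libraries compared was left out. Syt11, which does not bind calcium, was the synaptotagmin whose cortex TRAP level lay nearest that of cortex input, with 313, 299.8 and 330.3 normalized CPM in PAP TRAP, 439, 383 and 442 in synaptoneurosome input, 144, 147 and 124 in cortex TRAP, and 148, 148 and 169 in cortex input. Cortex TRAP and cortex input differed by -0.17 ± 0.21 (95% interval -0.60 to 0.27, adjusted p = 0.576). Syt11 rose by 1.19 ± 0.21 in PAP TRAP against cortex TRAP (adjusted p = 0.000236) and by 1.44 ± 0.21 in synaptoneurosome input against cortex input (adjusted p = 0.000205).

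Syt2, a fast sensor of the hindbrain and of some inhibitory neurons, was close to absent from cortex TRAP. Its counts there were 2, 0 and 1, so 3 of 19560313 nuclear counts, against 1047 of 18386778 in PAP TRAP and 650 of 17534124 in cortex input. The ratio of PAP TRAP to cortex TRAP was 371 (exact 95% interval 127 to 1803, for counting error only). The level was 26.8, 18.8 and 39.9 normalized CPM in PAP TRAP, 20.4, 34.0 and 23.2 in synaptoneurosome input, and 11.9, 12.8 and 14.8 in cortex input, with PAP TRAP and synaptoneurosome input overlapping. The fitted change of 8.59 in PAP TRAP against cortex TRAP (9.40 without cortex TRAP replicate 1) rests on the prior count of the fit and bounds nothing.

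SNARE genes were the most divided group. Of 6, 2 rose and 2 fell in PAP TRAP against cortex TRAP, and 1 rose and 3 fell in cortex TRAP against cortex input. Snap25, the plasma membrane SNARE of neurons and the member with the most counts, had 983, 685 and 1043 normalized CPM in PAP TRAP, 1869, 1858 and 3544 in synaptoneurosome input, 666, 892 and 976 in cortex TRAP, and 4511, 4194 and 5216 in cortex input. PAP TRAP and cortex TRAP overlapped, synaptoneurosome input lay above both, and cortex input was above all. Snap25 fell by 1.42 ± 0.27 in PAP TRAP against synaptoneurosome input (adjusted p = 0.00586) and by 2.46 ± 0.28 in cortex TRAP against cortex input (adjusted p = 1.08e-06). Between PAP TRAP and cortex TRAP it differed by 0.10 ± 0.26 (95% interval -0.45 to 0.65, adjusted p = 0.802), and by -0.21 with length-corrected offsets.

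Vamp2, the main vesicle SNARE of forebrain terminals, had 472, 419 and 618 normalized CPM in PAP TRAP, 352, 344 and 600.1 in synaptoneurosome input, 426, 575 and 469 in cortex TRAP, and 810.0, 621 and 913 in cortex input. PAP TRAP, synaptoneurosome input and cortex TRAP overlapped, and all 3 cortex inputs lay above them. Its change in PAP TRAP against cortex TRAP was 0.04 ± 0.26 (95% interval -0.50 to 0.58, adjusted p = 0.928). In cortex TRAP against cortex input it was -0.67 ± 0.26 (adjusted p = 0.0502, on the edge of the threshold), and in PAP TRAP against synaptoneurosome input 0.22 ± 0.26 (adjusted p = 0.702). Vamp1, the synaptobrevin of spinal cord and hindbrain, rose by 1.69 ± 0.45 in PAP TRAP against cortex TRAP (adjusted p = 0.00725), and with length-corrected offsets the change was 0.93 and not called (adjusted p = 0.123). Stx1a, the syntaxin of the presynaptic plasma membrane, had 20.4, 14.1 and 81.5 normalized CPM in PAP TRAP, 22.5, 14.9 and 23.7 in synaptoneurosome input, 2.95, 3.23 and 4.78 in cortex TRAP, and 39.7, 39.8 and 42.7 in cortex input. PAP TRAP replicate 3 was far above its 2 companions and higher than any other library. The rise of Stx1a in PAP TRAP against cortex TRAP was 3.40 ± 0.54 (adjusted p = 6.7e-05; 4.20 with length-corrected offsets), and 2.24 without that library. Against synaptoneurosome input the change was 0.92 ± 0.49 (adjusted p = 0.312), and -0.24 without it.

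Vamp3 (cellubrevin), a SNARE of recycling endosomes in many cell types, was the member that rose in cortex TRAP. Its levels were 30.5, 37.6 and 44.0 normalized CPM in PAP TRAP, 20.1, 22.1 and 19.3 in synaptoneurosome input, 130.1, 67.2 and 107 in cortex TRAP, and 21.0, 19.9 and 19.6 in cortex input. Cortex TRAP lay above every other library, and PAP TRAP lay between cortex TRAP and both inputs. Vamp3 rose by 2.33 ± 0.30 in cortex TRAP against cortex input (adjusted p = 5.63e-06) and fell by 1.44 ± 0.29 in PAP TRAP against cortex TRAP (adjusted p = 0.00088). With length-corrected offsets that fall was -0.77 and not called (adjusted p = 0.057). Against synaptoneurosome input, Vamp3 in PAP TRAP differed by 0.87 ± 0.30 (adjusted p = 0.106), and against cortex input it rose by 0.89 ± 0.29 (adjusted p = 0.0442, lost with no filter on low counts and without PAP TRAP replicates 2 or 3, cortex TRAP replicate 3 or any cortex input, at 0.0566 to 0.139). Snap29, a SNARE of endosomes and autophagosomes, had 10.8, 12.4 and 20.7 normalized CPM in PAP TRAP, 13.7, 11.9 and 7.53 in synaptoneurosome input, 37.4, 34.2 and 24.5 in cortex TRAP, and 19.6, 20.2 and 20.0 in cortex input. All 3 cortex TRAP libraries lay above every other library. Snap29 fell by 1.13 ± 0.38 in PAP TRAP against cortex TRAP (adjusted p = 0.0262), and its change in cortex TRAP against cortex input was 0.68 ± 0.37 (adjusted p = 0.167). The fall of Snap29 was not called with GC-corrected or length-corrected offsets, with no filter, with only the compared groups in the fit, or without PAP TRAP replicates 1 or 2, cortex TRAP replicates 1 or 2 or cortex input replicates 1 or 3 (adjusted p 0.055 to 0.262).

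**Figure D3:**
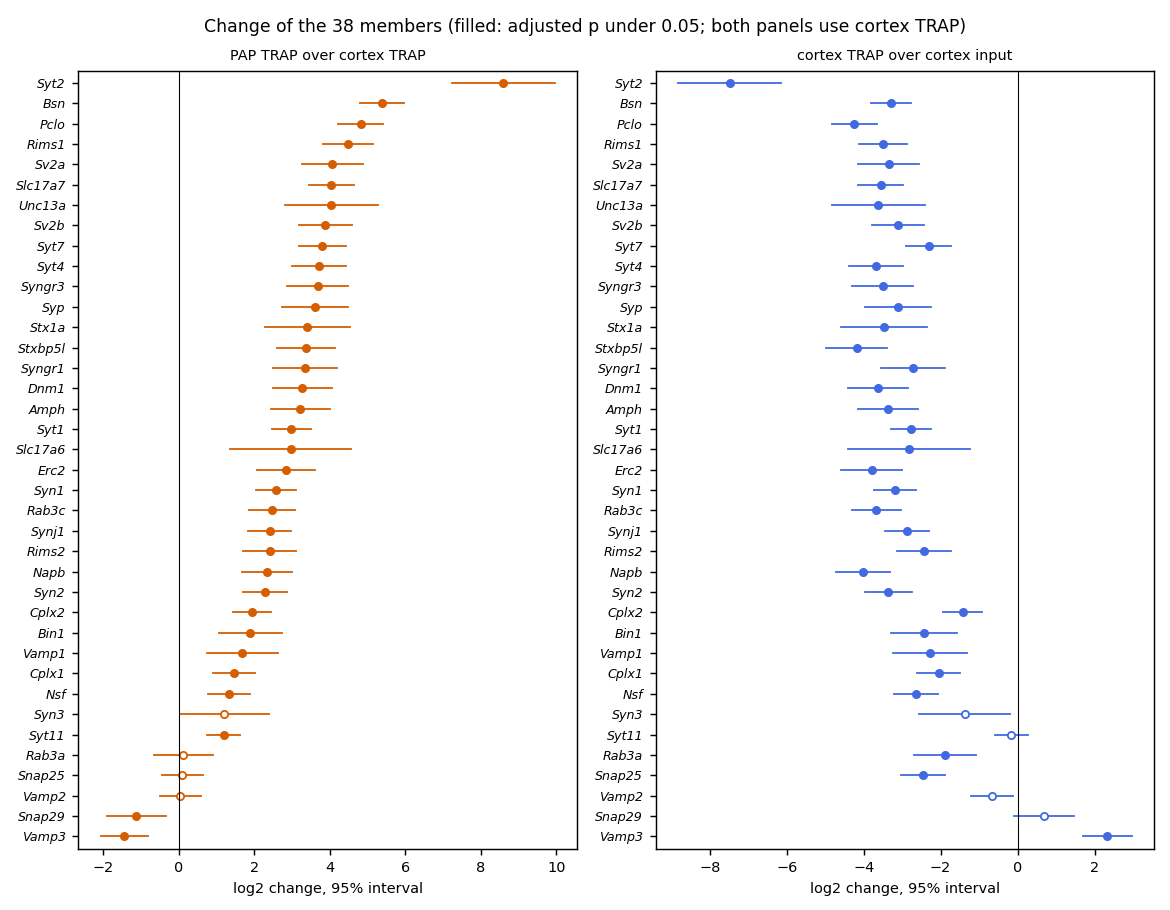
Log2 change of each of the 38 genes in PAP TRAP over cortex TRAP (left) and in cortex TRAP over cortex input (right), with 95% intervals and filled points where the adjusted p was under 0.05, in the order of the left panel. Of the 38, 32 are filled to the right of 0 on the left and 33 to the left of 0 on the right, with Vamp3 at -1.44 and 2.33; cortex TRAP enters both panels with opposite sign.

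Vamp3, Snap29 and Syt11 each made up a larger share of their families in cortex TRAP than in cortex input. Of the 3, Vamp3 alone also rose there, while other members of all 3 families fell. Counts were divided by exon length for these shares, so they compare levels per length within 1 library. Vamp3 made up 7.72%, 10.4% and 8.50% of the Vamp1, Vamp2 and Vamp3 total in PAP TRAP, 6.89%, 7.69% and 3.99% in synaptoneurosome input, 28.6%, 13.3% and 23.0% in cortex TRAP, and 3.26%, 3.99% and 2.73% in cortex input. Snap29 made up 2.12% to 3.77% of the Snap25 and Snap29 total in PAP TRAP, 0.417% to 1.42% in synaptoneurosome input, 4.71% to 9.97% in cortex TRAP and 0.749% to 0.940% in cortex input. For both genes all cortex TRAP libraries lay above all other libraries. Among the 5 synaptotagmins, Syt11 made up 24.4%, 31.2% and 26.4% in PAP TRAP, 23.6%, 20.8% and 20.6% in synaptoneurosome input, 68.5%, 64.1% and 52.0% in cortex TRAP, and 19.2%, 19.6% and 21.1% in cortex input. Syt1 held 41.7% to 44.4%, 55.1% to 58.5%, 23.0% to 34.2% and 55.4% to 57.1% of that total in the same 4 groups. PAP TRAP replicate 2, the library with the highest astrocyte share, also had the highest share of Vamp3 and of Syt11 in its group, but not of Snap29, which was highest in replicate 3.

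**Figure D4:**
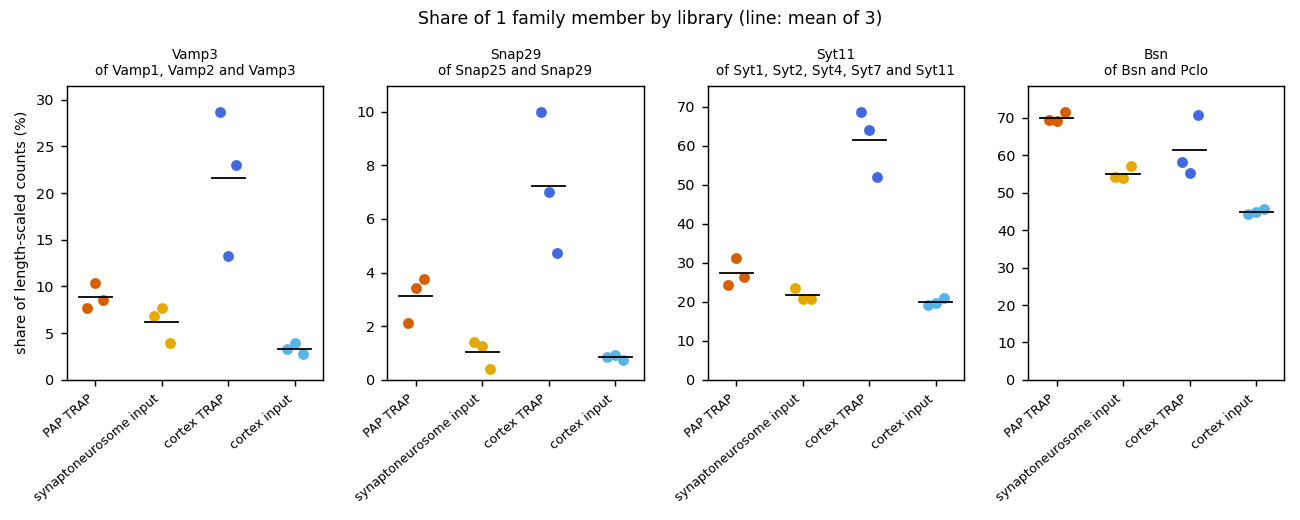
Share of Vamp3, Snap29, Syt11 and Bsn within their families in each library (% of counts per exon length, 1 point per library, line at the mean of 3). Cortex TRAP is highest for Vamp3, Snap29 and Syt11 (52.0% to 68.5% of 5 synaptotagmins), while the Bsn share of Bsn and Pclo is 69.1% to 71.5% in PAP TRAP against 54.0% to 57.1% in synaptoneurosome input.

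Regulators of the SNARE cycle all rose in PAP TRAP against cortex TRAP (5 of 5) and all fell in cortex TRAP against cortex input (5 of 5). The complexins clamp SNARE complexes until calcium arrives. Cplx2 had 664, 437 and 478 normalized CPM in PAP TRAP, 450.0, 387 and 526 in synaptoneurosome input, 107, 161 and 143 in cortex TRAP, and 375, 358 and 371 in cortex input. Cortex TRAP was lowest without overlap, and PAP TRAP exceeded the cortex inputs in each library. It rose by 1.94 ± 0.24 in PAP TRAP against cortex TRAP (adjusted p = 4.62e-06). Cplx1 rose by 1.46 ± 0.26 (adjusted p = 0.000264), and by 2.33 with length-corrected offsets. Stxbp5l, the tomosyn-like partner of syntaxin, averaged 38.6 ± 9.47 normalized CPM in PAP TRAP, 45.8 ± 8.56 in synaptoneurosome input, 3.73 ± 1.74 in cortex TRAP and 68.4 ± 7.87 in cortex input (SD, n = 3 each), and rose by 3.36 ± 0.37 in PAP TRAP against cortex TRAP (adjusted p = 7.78e-07).

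Nsf, the ATPase that takes SNARE complexes apart, had 170.0, 144 and 272 normalized CPM in PAP TRAP, 236, 234 and 310.2 in synaptoneurosome input, 77.1, 93.5 and 61.6 in cortex TRAP, and 497, 459 and 486 in cortex input. PAP TRAP lay above all cortex TRAP libraries and below all cortex inputs. Nsf rose by 1.34 ± 0.26 in PAP TRAP against cortex TRAP (adjusted p = 0.000635) and fell by 1.30 ± 0.26 against cortex input (adjusted p = 0.00177). Napb, its adaptor beta-SNAP, had 116, 129.8 and 167 normalized CPM in PAP TRAP, 190.2, 181 and 275 in synaptoneurosome input, 25.0, 41.1 and 16.0 in cortex TRAP, and 412, 414 and 506 in cortex input, again with cortex TRAP lowest and cortex input highest. It rose by 2.33 ± 0.31 in PAP TRAP against cortex TRAP (adjusted p = 1.01e-05) and fell by 1.69 ± 0.30 against cortex input (adjusted p = 0.000656).

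All 6 active zone genes rose in PAP TRAP against cortex TRAP, and Bsn, Pclo and Rims1 had the largest changes of the 38 genes after Syt2, an order that did not hold with length-corrected offsets, where Syngr3 and Stx1a exceeded Bsn. Bassoon (Bsn), a giant scaffold of the release site, had 1257, 799 and 1010.0 normalized CPM in PAP TRAP, 587, 527 and 745 in synaptoneurosome input, 21.0, 25.3 and 27.5 in cortex TRAP, and 243, 232 and 249.7 in cortex input. The 4 groups did not overlap, with PAP TRAP highest and cortex TRAP lowest. Bsn rose by 5.38 ± 0.28 in PAP TRAP against cortex TRAP (adjusted p = 1.27e-10; 4.06 with length-corrected offsets), by 2.08 ± 0.24 against cortex input (adjusted p = 5.44e-06), and by 1.36 ± 0.23 in synaptoneurosome input against cortex input (adjusted p = 0.000837). Against synaptoneurosome input its change in PAP TRAP was 0.72 ± 0.23 and not called (95% interval 0.24 to 1.20, adjusted p = 0.0795). It was called there without the mitochondrial genes (0.86, adjusted p = 0.0299).

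Piccolo (Pclo), the relative of bassoon at the same site, had 784, 502 and 568 normalized CPM in PAP TRAP, 696, 632 and 789 in synaptoneurosome input, 21.1, 28.7 and 16.1 in cortex TRAP, and 431, 403 and 418 in cortex input. Here PAP TRAP and synaptoneurosome input overlapped, and cortex TRAP was lowest. Pclo rose by 4.82 ± 0.29 in PAP TRAP against cortex TRAP (adjusted p = 4.09e-10; 3.11 with length-corrected offsets) and changed by -0.19 ± 0.24 against synaptoneurosome input (adjusted p = 0.73). Of the counts per length of both scaffolds, Bsn held 69.3%, 69.1% and 71.5% in PAP TRAP, 54.3%, 54.0% and 57.1% in synaptoneurosome input, 58.3%, 55.4% and 70.7% in cortex TRAP, and 44.3%, 44.8% and 45.7% in cortex input.

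Rims1, which ties vesicles and calcium channels together, had 468, 305 and 318 normalized CPM in PAP TRAP, 317, 289 and 308 in synaptoneurosome input, 11.3, 22.1 and 15.5 in cortex TRAP, and 139, 218 and 192 in cortex input. It rose by 4.48 ± 0.31 in PAP TRAP against cortex TRAP (adjusted p = 2.71e-09), with every PAP TRAP library above every cortex library. Against cortex input it rose by 0.99 ± 0.27 in PAP TRAP (adjusted p = 0.0173, and 0.058 to 0.114 without PAP TRAP replicate 1 or cortex input replicates 1 or 3). Its relative Rims2 rose by 2.41 ± 0.34 in PAP TRAP against cortex TRAP (adjusted p = 1.73e-05; 1.63 with length-corrected offsets). Erc2, a scaffold that binds RIM and bassoon, rose by 2.85 ± 0.37 (adjusted p = 6.44e-06; 2.14 with length-corrected offsets). Unc13a (Munc13-1), which primes vesicles for fusion, had 138, 89.7 and 109.8 normalized CPM in PAP TRAP, 72.0, 56.4 and 85.9 in synaptoneurosome input, 12.1, 0.580 and 7.65 in cortex TRAP, and 73.6, 75.1 and 103 in cortex input. Cortex TRAP replicate 2 held only 7 counts of it, against 213 and 128 in the other 2 libraries. The rise of Unc13a in PAP TRAP against cortex TRAP was 4.04 ± 0.59 (adjusted p = 2.66e-05), 4.85 without cortex TRAP replicate 1 and 2.99 with length-corrected offsets. Against synaptoneurosome input its change was 0.65 ± 0.52 (95% interval -0.44 to 1.74, adjusted p = 0.534). In cortex TRAP against cortex input Unc13a changed by -3.62, and by -4.44 to -3.23 with 1 library left out.

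The 4 genes of vesicle endocytosis all rose in PAP TRAP against cortex TRAP and all fell in cortex TRAP against cortex input. Dnm1, the neuronal dynamin that cuts vesicles off the membrane, had 174, 119 and 315 normalized CPM in PAP TRAP, 126, 166 and 191 in synaptoneurosome input, 13.9, 16.9 and 31.9 in cortex TRAP, and 265, 235 and 274 in cortex input. Cortex TRAP was lowest without overlap, and PAP TRAP overlapped both inputs. Dnm1 rose by 3.28 ± 0.37 in PAP TRAP against cortex TRAP (adjusted p = 1.19e-06), and by 3.86 without cortex TRAP replicate 3. Amph, which brings dynamin to curved membrane, rose by 3.22 ± 0.37 (adjusted p = 1.53e-06), and by 3.83 without cortex TRAP replicate 1. Bin1, its broadly expressed relative, rose by 1.90 ± 0.40 (adjusted p = 0.00127). Synj1, the lipid phosphatase that uncoats vesicles, averaged 271 ± 49.4 normalized CPM in PAP TRAP, 279 ± 101 in synaptoneurosome input, 50.9 ± 2.20 in cortex TRAP and 373 ± 24.3 in cortex input (SD, n = 3 each). It rose by 2.41 ± 0.27 in PAP TRAP against cortex TRAP (adjusted p = 1.07e-06).

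Synaptoneurosome input against cortex input compares the RNA of the layer with that of whole tissue before any immunoprecipitation. The members that rose were Sv2b, Syngr3, Syt1, Syt4, Syt7, Syt11 and Bsn, and those that fell were Snap25 (-0.94 ± 0.27, adjusted p = 0.0319), Vamp2 (-0.85 ± 0.26, adjusted p = 0.0447), Nsf (-0.88 ± 0.26, adjusted p = 0.0382) and Napb (-1.04 ± 0.30, adjusted p = 0.0338). Cell type markers moved in this comparison too: 8 of 12 for microglia (median 2.68) and 12 of 15 for astrocytes (median 1.78) rose and none of either fell. Of 16 neuron markers 1 rose and 2 fell (median -0.38). Of 11 oligodendrocyte markers 3 rose and 0 fell (median 0.62). The part of these cell types in the members' changes was not tested. The 4 falls were each lost with RLE scaling, GC-corrected offsets and length-corrected offsets (adjusted p 0.0505 to 0.223). Under RLE scaling 10 members rose and 0 fell, and 11 rose and 0 fell under either kind of corrected offset. The 38 were also sorted by how each protein meets the membrane, a grouping chosen after the values were seen and therefore not tested. The 12 proteins that span the membrane and are inserted into it during synthesis had positive changes in 12 of 12 genes, with a median of 1.16 and a range of 0.77 to 1.50, and 6 were called higher. Over all genes tested 7.26% were called higher and the median was -0.14. Membrane-spanning proteins in general were not counted. The 4 tail-anchored SNAREs, which are inserted after synthesis, had 1 positive change, of Vamp3 at 0.02, and a median of -0.65. The 22 cytosolic or peripheral proteins had 6 positive changes and a median of -0.57, with Bsn the highest (1.36) and Rab3a the lowest (-1.17, adjusted p = 0.0596).

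The same grouping gave 13 positive changes among 16 other presynaptic genes whose proteins are inserted during synthesis (median 0.92), 15 among 57 whose proteins are cytosolic or peripheral (median -0.49) and 3 among 12 tail-anchored ones (median -0.54). It was not particular to presynaptic genes. Of postsynaptic density genes, 7 of 7 inserted during synthesis were positive (median 1.30, 6 called higher), and 9 of 17 cytosolic or peripheral ones (median 0.01, 5 called higher and 3 lower). In PAP TRAP against synaptoneurosome input, the 12 membrane-spanning members had 2 positive changes and a median of -0.53, among them both Syt1 and Syt4, which fell. The 22 cytosolic or peripheral members had 8 positive changes and a median of -0.17, and the 4 tail-anchored ones 3 and a median of 0.54. Both comparisons use the synaptoneurosome inputs, which enter with opposite sign.

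**Figure D5:**
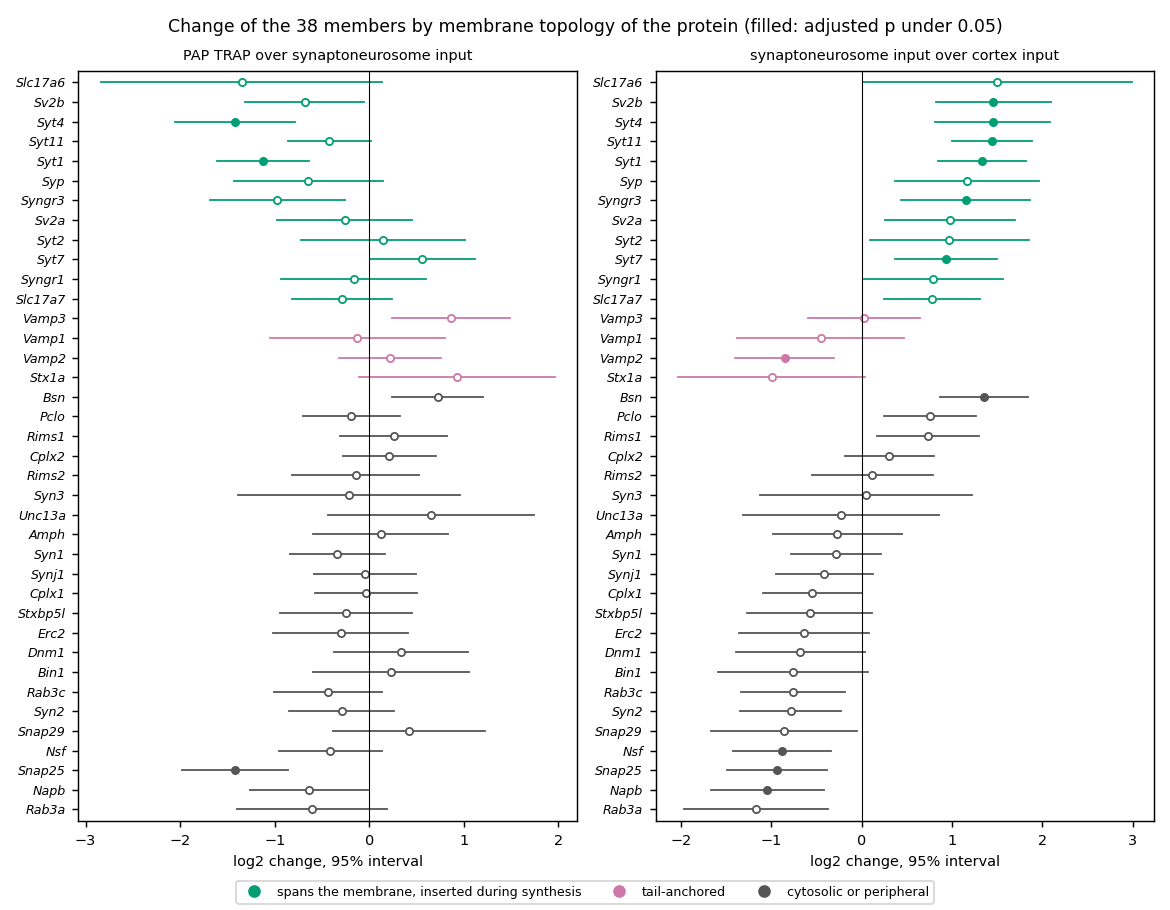
Log2 change of the 38 genes in PAP TRAP over synaptoneurosome input (left) and in synaptoneurosome input over cortex input (right), with 95% intervals, coloured by membrane topology of the protein and filled where the adjusted p was under 0.05. On the right all 12 proteins inserted during synthesis lie above 0 (0.77 to 1.50), and on the left Syt4, Syt1 and Snap25 are the filled points, at -1.42, -1.12 and -1.42.

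The change on immunoprecipitation was set against itself between the layer and whole tissue, as the difference of PAP TRAP over synaptoneurosome input and cortex TRAP over cortex input. It was called above 0 for 30 members and below 0 for 1, Vamp3, where 20.2% of all genes were called (12.9% above 0, 7.32% below). By sign alone it was positive for 35 members and negative for 3. The median was 2.61 over the members and 0.03 over all genes. Of the cell type markers in the same test, 15 of 16 for neurons (median 2.87) and 7 of 11 for oligodendrocytes (median 2.55) were called above 0. For astrocytes 15 of 15 were called below 0 (median -3.13). Their part in the members' differences was not tested. Not called were Slc17a6 (1.47 ± 1.00), Syn3 (1.16 ± 0.79), Rab3a (1.29 ± 0.53), Snap25 (1.03 ± 0.37), Vamp2 (0.89 ± 0.37), Syt11 (-0.26 ± 0.29) and Snap29 (-0.27 ± 0.53), with adjusted p-values from 0.0575 to 0.781. Of these, Slc17a6 was called without cortex TRAP replicate 1 (3.91, adjusted p = 0.00157). Rab3a was called when cortex TRAP replicate 3 (1.88) or replicate 2 of PAP TRAP (1.58) was left out, with length-corrected offsets (1.79), with no filter and with the replicate block. Snap25 was called without any 1 of 5 libraries (1.21 to 1.44), with no filter, without mitochondrial genes and with the replicate block. Vamp2 was called without cortex TRAP replicate 2 (1.17), without synaptoneurosome input replicate 3 (1.23) and without mitochondrial genes (1.01). Syn3 came to 0.24 with length-corrected offsets and to 2.14 without synaptoneurosome input replicate 3, and was called in neither.

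Beyond the 38, a list of 87 other genes of vesicles, SNAREs, the active zone and endocytosis held 85 that could be tested. Of these, 38 rose and 11 fell in PAP TRAP against cortex TRAP (median 1.15), where 19.3% of all genes tested rose and 14.6% fell. In cortex TRAP against cortex input 6 rose and 43 fell (median -1.42), where 15.9% of all genes tested rose and 19.5% fell. The largest rises in PAP TRAP against cortex TRAP were those of Rims4, a short RIM (6.62 ± 0.55), Slc32a1, the vesicular GABA transporter (5.34 ± 0.67, and 6.70 without cortex TRAP replicate 2), and Syt16, a synaptotagmin that does not bind calcium (4.40 ± 0.40, and 5.01 without cortex TRAP replicate 1). The largest falls were those of Stx8, an endosomal syntaxin (-3.56 ± 0.80, and -4.45 without PAP TRAP replicate 2), Stx4a, a syntaxin of the plasma membrane in many cells (-1.94 ± 0.49, and -1.12 and not called with length-corrected offsets), and Dnm2, the ubiquitous dynamin. Dnm2 rested on cortex TRAP replicate 1, with 14.9, 17.3 and 25.6 normalized CPM in PAP TRAP and 4076, 29.5 and 30.6 in cortex TRAP, and its change of -6.16 ± 1.29 became -0.51 (adjusted p = 0.432) without that library.

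By role, 9 of 14 other vesicle proteins, 6 of 11 other synaptotagmins, 9 of 14 other active zone proteins, 8 of 18 other endocytic proteins and 5 of 13 other SNARE regulators rose in PAP TRAP against cortex TRAP. Of 15 other SNAREs, 1 rose and 6 fell. Over all genes tested, 19.3% rose and 14.6% fell in that comparison. In PAP TRAP against synaptoneurosome input 4.53% of all genes tested were called (3% higher, 1.53% lower). Of the 85, 1 rose there, Apba1 (0.99 ± 0.27), and 3 fell, Synpr (-2.18 ± 0.51), Sh3gl2 (-1.63 ± 0.27) and Atp6v1g2 (-1.16 ± 0.31). Sh3gl2, an endophilin of vesicle endocytosis, kept its call under every alternative tried, and the other 3 lost theirs without some library. For comparison, 24 genes of the postsynaptic density, the scaffold opposite the terminal, took 3.29% to 5.15% of nuclear counts in PAP TRAP, 2.42% to 2.86% in synaptoneurosome input, 0.203% to 0.208% in cortex TRAP and 1.62% to 1.82% in cortex input. Of these 24, 23 rose in PAP TRAP against cortex TRAP, where 19.3% of all genes tested rose. In PAP TRAP against synaptoneurosome input 11 rose and 3 fell, where 3% of all genes tested rose and 1.53% fell. Whether that last count differs from the presynaptic one was not tested.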

How the data were processed

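RNA was amplified to cDNA from 2 ng by SPIA (Nugen) and made into libraries with NEB Next, per the labels' protocols. The deposited values are raw read counts per gene. Trimmomatic 0.32, Bowtie2, STAR and HTSeq are named in the submitters' processing notes. For the genome build, the annotation and the strand setting of the counting, the entry is: not given in the sources used here. Lines that name no gene held 20.3% to 55.5% of the counts and were left out. All 12 libraries (3 in each of 4 groups) were fitted together in edgeR 4.0.16 (R 4.3.3) with 1 mean per group, TMM scaling and filterByExpr (minimum count 10, minimum total 15), which kept 13364 genes. The quasi-likelihood test was used with Benjamini-Hochberg adjustment over all of them, and changes were called at an adjusted p under 0.05. The SE is the change divided by the square root of F. Shares used nuclear counts. Intervals of counts cover counting error only. Exon lengths and promoters came from the reference annotation and from RefSeq.

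Alternatives were RLE scaling, no filter, DESeq2 1.42.0, a fit of only the groups compared, a block for the replicate number, no mitochondrial genes, offsets corrected (loess, span 0.3) for GC content or for exon length, and each library left out in turn. Exon length is that of all annotated exons of a gene merged, and can exceed that of any transcript. The rule for naming genes took all 38 members and, per comparison, the 3 largest called rises and falls of other presynaptic genes whose mean log2 CPM was 3 or more. Those are named for the comparisons of TRAP libraries with each other and with their inputs, and postsynaptic density genes are given as counts. The members and lists were chosen with earlier results of these data known.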

Additional observations from a re-analysis of the deposited data

Results flagged for a closer look

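For 31 of the 38 genes the change on immunoprecipitation differed between the synaptoneurosome layer and whole tissue, tested in edgeR as the log2 change of PAP TRAP over synaptoneurosome input minus that of cortex TRAP over cortex input. Over all genes tested 20.2% were called in that test (12.9% above 0, 7.32% below). A positive value means that the gene stood higher in PAP TRAP, relative to its input, than in cortex TRAP relative to its own. Among vesicle membrane proteins the difference was 2.46 for Syp (3.20 without synaptoneurosome input replicate 3), 3.09 for Sv2a, 2.43 for Sv2b (1.79 with length-corrected offsets), 2.56 for Syngr1 (3.50 without cortex TRAP replicate 3) and 2.53 for Syngr3. It was 3.27 for Slc17a7, 2.85 for Syn1, 3.07 for Syn2 and 3.24 for Rab3c (2.31 with length-corrected offsets).

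Among synaptotagmins it was 1.65 for Syt1 (1.02 with length-corrected offsets), 7.62 for Syt2 (8.44 without cortex TRAP replicate 1), 2.27 for Syt4 and 2.87 for Syt7. Syt2 had 3 counts in cortex TRAP in all, so its fitted difference depends on the prior count. Among SNAREs and their regulators it was 4.40 for Stx1a (3.24 without PAP TRAP replicate 3), 2.14 for Vamp1 (1.40 and not called with length-corrected offsets, adjusted p = 0.138), -1.46 for Vamp3, 2.01 for Cplx1, 1.64 for Cplx2, 3.94 for Stxbp5l (4.52 without cortex TRAP replicate 1, 3.30 with length-corrected offsets), 2.22 for Nsf (1.59 with length-corrected offsets) and 3.38 for Napb. Vamp3 was the 1 gene called below 0, and that call was lost with length-corrected offsets and without some libraries.

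Among active zone proteins it was 4.02 for Bsn, 4.06 for Pclo, 3.75 for Rims1, 2.29 for Rims2, 3.49 for Erc2 and 4.27 for Unc13a (5.09 without cortex TRAP replicate 1). With length-corrected offsets these came to 2.82 for Bsn, 2.54 for Pclo, 1.51 for Rims2, 2.77 for Erc2 and 3.29 for Unc13a. Among the endocytic proteins it was 3.96 for Dnm1 (4.56 without cortex TRAP replicate 3), 3.49 for Amph (4.11 without cortex TRAP replicate 1), 2.66 for Bin1 and 2.83 for Synj1 (2.22 with length-corrected offsets). Of 16 neuron markers, 15 rose in PAP TRAP against cortex TRAP and 16 fell in cortex TRAP against cortex input. For 11 oligodendrocyte markers 8 rose and 9 fell in these comparisons, and for 12 microglia markers 7 rose and 6 fell. In the test of the difference itself 15 of the 16 neuron, 7 of 11 oligodendrocyte and 1 of 12 microglia markers were called above 0. All 15 of 15 astrocyte markers were called below 0, and the part of these cell types in the differences was not tested.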

How the results depend on the processing

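Of 124 called changes of the 38 genes, 16 lost their call under some setting and 0 turned sign. The number of members higher in synaptoneurosome input than in cortex input, 7, became 13 with DESeq2, 15 with only the compared groups in the fit, and 11 with GC-corrected or length-corrected offsets. The number lower, 4, became 0 with RLE scaling and with GC-corrected or length-corrected offsets, and 9 with only the compared groups. The 2 members lower in PAP TRAP than in cortex TRAP became 1 with no filter, with only the compared groups and with GC-corrected offsets, and 0 with length-corrected offsets. Without mitochondrial genes 1 member, Bsn, rose in PAP TRAP against synaptoneurosome input (0 otherwise), and 8 in place of 5 rose against cortex input. The 1 difference of enrichments called below 0, that of Vamp3, was not called with length-corrected offsets. The members' share of counts was 1.09% in PAP TRAP, 0.334% in synaptoneurosome input, 0.591% in cortex TRAP and 1.82% in cortex input with all genes in the denominator, since mitochondrial counts differ. With 1 library left out, 32 to 33 members rose and 1 to 2 fell in PAP TRAP against cortex TRAP, 5 to 10 rose and 0 to 5 fell in synaptoneurosome input against cortex input, and 3 to 6 rose in PAP TRAP against cortex input. In the same fits 29 to 32 differences of enrichments were called above 0 and 0 to 1 below. Uncalled changes crossed 0. In synaptoneurosome input against cortex input, Vamp3 was -0.0344 with no filter, Syn3 was -0.17 with the replicate block and -0.0223 with length-corrected offsets, and Syn1 was 0.0269 with length-corrected offsets. With 1 library left out these changes ran from -0.89 to 0.50 for Syn3, from -0.0887 to 0.31 for Rims2 and from -0.0204 to 0.071 for Vamp3. In PAP TRAP against cortex TRAP they ran from -0.17 to 0.69 for Rab3a, from -0.0145 to 0.36 for Snap25 (-0.21 with length-corrected offsets) and from -0.13 to 0.30 for Vamp2. In PAP TRAP against synaptoneurosome input they ran from -0.92 to 0.0792 for Syp and from -0.24 to 1.33 for Stx1a. The cause of these moves was not tested. Over all genes, the 401 higher and 204 lower in PAP TRAP against synaptoneurosome input became 686 and 567 with DESeq2, the 401 became 635 with no filter and 177 with GC-corrected offsets, and the 970 higher and 276 lower in synaptoneurosome input against cortex input became 1538 and 497 with DESeq2 and 1550 and 701 with only the compared groups. The 276 became 128 with GC-corrected and 170 with length-corrected offsets, the 709 lower in PAP TRAP against cortex input became 1072 with DESeq2 and 460 with GC-corrected offsets, and the 1949 lower in PAP TRAP against cortex TRAP became 1285 with only the compared groups. The median change of all genes in PAP TRAP against cortex TRAP was -0.28, and -0.11 without mitochondrial genes. Libraries with the same replicate number were not treated as pairs, since nothing in the labels ties them and their deviations from the group means correlated weakly, at 0.0057 to 0.0804 (18 pairs), against -0.0697 to 0.0551 for other numbers (36 pairs), although all 18 were positive and 8 of 12 libraries correlated best with their own number in all 3 other groups, a hint from the data and not the design. With the replicate block 32 members rose and 2 fell in PAP TRAP against cortex TRAP, 1 rose and 34 fell in cortex TRAP against cortex input, 0 rose and 3 fell in PAP TRAP against synaptoneurosome input, 10 rose and 5 fell in synaptoneurosome input against cortex input, and 5 rose and 8 fell in PAP TRAP against cortex input. Nuclear counts were fewest in the synaptoneurosome inputs.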

Other observations

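Per length of exon, the order of the 38 genes differed between groups. Snap25 led in PAP TRAP with 133 ± 28.2 normalized CPM per kilobase (SD, n = 3), next to Vamp2 with 132 ± 27.0, a difference within their spread. It led in synaptoneurosome input with 357, ahead of Syt1 with 211. In cortex TRAP Vamp2 had 129 ± 20.0 and Snap25 124 ± 23.6, again within their spread, and Vamp3 followed with 35.1 ± 11.0. In cortex input Snap25 stood far ahead, with 683 ± 77.0, against 205 ± 38.8 for Vamp2.

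Of the other presynaptic genes with a mean log2 CPM of 3 or more, the largest rises in cortex TRAP against cortex input were those of Dnm2, Snap23 and Stxbp3, which serve membrane traffic in many cell types. Vamp8, below that level, changed by 4.33. Snap23 changed by 2.10 ± 0.62 and Stxbp3 by 1.95 ± 0.61, and both lost their calls without some library. Dnm2 changed by 6.81 ± 1.33, which rested on 1 cortex TRAP library, and by 1.16 without it (adjusted p = 0.0593). The largest falls were those of Dnm3, a dynamin of brain and testis (-4.53 ± 0.34), Syt16 (-4.52 ± 0.40) and Rims4 (-4.46 ± 0.52).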
